A study of Mus musculus with 6 samples.

Results

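The organic ion and ABC transporters of mouse liver were described in HMGB2-KO against WT animals. Members were taken by symbol, as every array probe set whose single gene symbol begins with Slco, Slc22a or Abca to Abcg followed by a digit. This gave 91 genes of 22203 probe sets with a symbol, of which 41 are uptake genes (15 Slco and 26 Slc22a) and 50 are ABC genes. Each symbol stood on 1 probe set, all 91 were tested with no filter on low values, and 1 further probe set that joined Abcc2 to another symbol was left out. Livers came from male C57BL/6 mice aged 8 weeks, either WT or HMGB2-KO, with 3 arrays per genotype and no treatment named. The series set out to screen for genes related to HMGB2, a DNA-bending chromatin protein. The extent of the Hmgb2 deletion and the cells that carry it are not stated in the labels. The titles number the livers 1 to 3 within a genotype without saying that each is a separate mouse, so every p-value rests on liver-to-liver spread that could be technical in part.

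Hepatocytes take up bile acids, drugs and hormone conjugates from blood and release them, changed or not, into bile. Slco genes encode organic anion transporting polypeptides, and Slc22a genes encode organic cation, organic anion and carnitine transporters, which together serve mainly uptake. ABC transporters are ATP-driven pumps that move bile salts, phospholipid, sterols and conjugates across the canalicular or sinusoidal membrane, or fatty acids and cofactors across the membranes of organelles.

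All values are the deposited log2 values, which were centred gene by gene, so that they compare arrays for 1 gene and give no level between genes. For the same reason the tissue could not be checked by the brightness of its markers. Hmgb2 stood between 0.38 and 0.62 in the WT livers and between -0.70 and -0.38 in the HMGB2-KO livers, a change of -1.01 ± 0.15 (SE, n = 3 per genotype, limma adjusted p 0.469), which checks the labels only if its probes lie within the deletion. WT replicate 2 had a median of 0.26 over all probe sets against -0.05 to 0.01 on the other 5 arrays. The median change of all probe sets, HMGB2-KO minus WT, was therefore -0.12, and family medians are also given relative to it. In whole liver, fewer cells of a type and less RNA per cell cannot be told apart. Of 8 hepatocyte markers 0 had an unadjusted limma p under 0.05, and their mean ran from -0.01 to 0.19 in WT and from 0.01 to 0.02 in HMGB2-KO. Among 37 markers of other liver cells, Spp1 of bile duct cells was higher in HMGB2-KO by 0.55 ± 0.20 and Pecam1 of endothelium by 0.43 ± 0.17 (SE, unadjusted limma p 0.0251 and 0.0346), both picked after their values were seen. Over all probe sets 0.0721% were higher at an unadjusted limma p under 0.05. The change was below 0 in 5 of the 7 bile duct markers, which averaged -0.05 to 0.15 in WT and -0.11 to -0.09 in HMGB2-KO. It was also below 0 in 5 of the 7 endothelial markers, which averaged 0.41 to 0.86 in WT and 0.60 to 0.74 in HMGB2-KO. The part of these cell types in the transporter values was not tested.

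The median change of the 91 members was -0.13, beside -0.12 for all probe sets, and 46 members lay below the median gene. None of the 91 members passed an adjusted p of 0.05 in limma, as for all probe sets (0% called), and the smallest adjusted p among them was 0.852. At an unadjusted p under 0.05, 4 members were lower in HMGB2-KO, namely Slco1a4, Abcb1b, Abcd3 and Slc22a8, and 0 were higher. Over all probe sets 4.85% were lower and 0.0721% higher by that rule, so the members' share of 4.40% lay near the background. With a fold of at least 1.5 as well, 1 member was lower, Slco1a4, beside 1.60% of all probe sets, and 0 were higher, beside 0.0180%. After each array was centred on its median, Slco1a4 and Abcb1b were lower (background 2.80%) and Slc22a23 was higher (background 1.03%). In 7 members every HMGB2-KO value lay below every WT value, beside 10.9% of all probe sets, and in 0 members above, beside 0.779%. These 7 were Abcb1b, Abcd3, Slc22a18, Slc22a2, Slc22a26, Slc22a3 and Slco6c1. The 95% interval of the change lay within a 2-fold change either way for 75 of the 91 members.

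**Figure D1:**
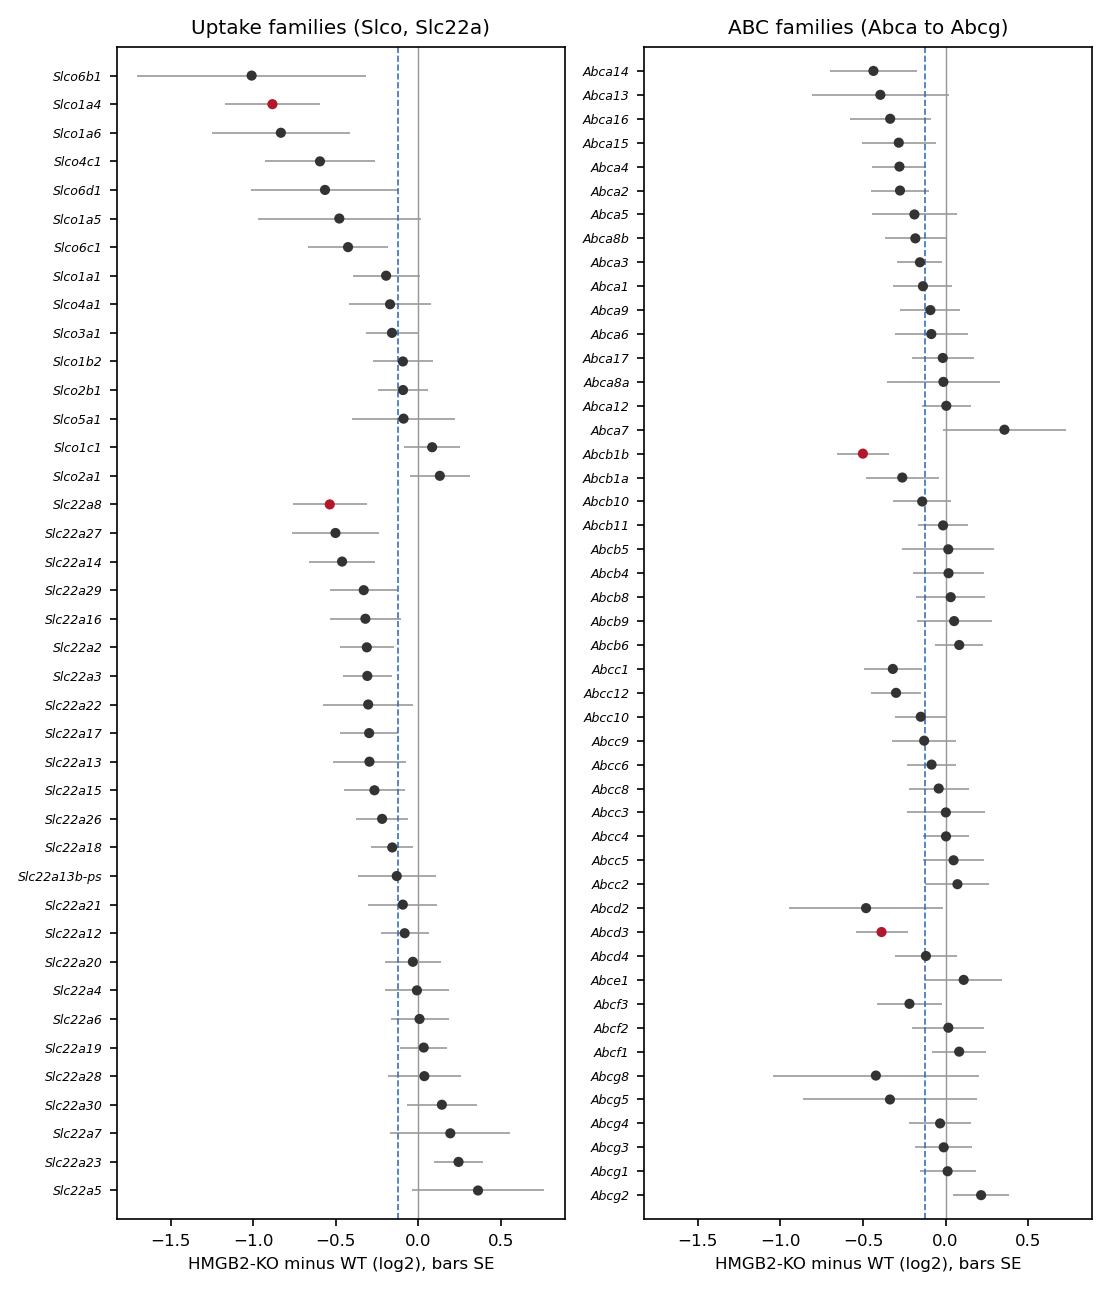
Change of each of 88 members, as the log2 difference of HMGB2-KO and WT means, with points for the limma estimate and bars for 1 SE (3 arrays per genotype), Slco and Slc22a on the left and ABC genes on the right. Red points have an unadjusted p under 0.05, the dashed line is the median of all probe sets (-0.12), and the estimates run from -1.01 (Slco6b1) to 0.36 (Slc22a5).

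Sinusoidal uptake carriers of hepatocytes differed between genotypes at an unadjusted p for Slco1a4 alone among the 5 described here, and their median change was -0.09, or 0.03 relative to the median gene. Slco1a4 encodes a carrier of bile acids and cardiac glycosides. It stood at 0.06, 0.35 and -0.60 in WT replicates 1, 2 and 3 and at -0.53, -1.26 and -1.06 in HMGB2-KO replicates 1, 2 and 3. Replicates 2 and 3 of HMGB2-KO were the lowest of the 6 arrays, while WT replicate 3 lay just below HMGB2-KO replicate 1, so the groups overlapped. The change was -0.88 ± 0.29 (SE), a 1.84-fold lower level, with an unadjusted limma p of 0.0159 that became 0.0592 without HMGB2-KO replicate 2. On centred arrays the change was -0.76.

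Slco1a1, a carrier of steroid conjugates that is male-predominant in mouse liver, stood at 0.90, 1.19 and 0.57 in WT and at 0.95, 0.57 and 0.56 in HMGB2-KO. Its groups overlapped, and the change of -0.19 ± 0.20 (SE) was below the spread between arrays. Slco1b2, the mouse counterpart of the human OATP1B carriers of bilirubin and bile acids, stood at 0.42, 0.81 and 0.23 against 0.44, 0.48 and 0.26, a change of -0.09 ± 0.18 that turned to 0.03 on centred arrays. Slco2b1, a carrier of sulfated steroids, changed by -0.09 ± 0.15, likewise turning to 0.03.

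Slc22a7, the organic anion transporter OAT2, varied by liver number more than by genotype. It stood at -0.41, 0.02 and 0.90 in WT and at -0.09, 0.34 and 0.85 in HMGB2-KO. Both livers numbered 3 were the highest and both numbered 1 the lowest. The difference between genotypes was 0.19 ± 0.36 (SE), and without WT replicate 1 it was -0.10.

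**Figure D2:**
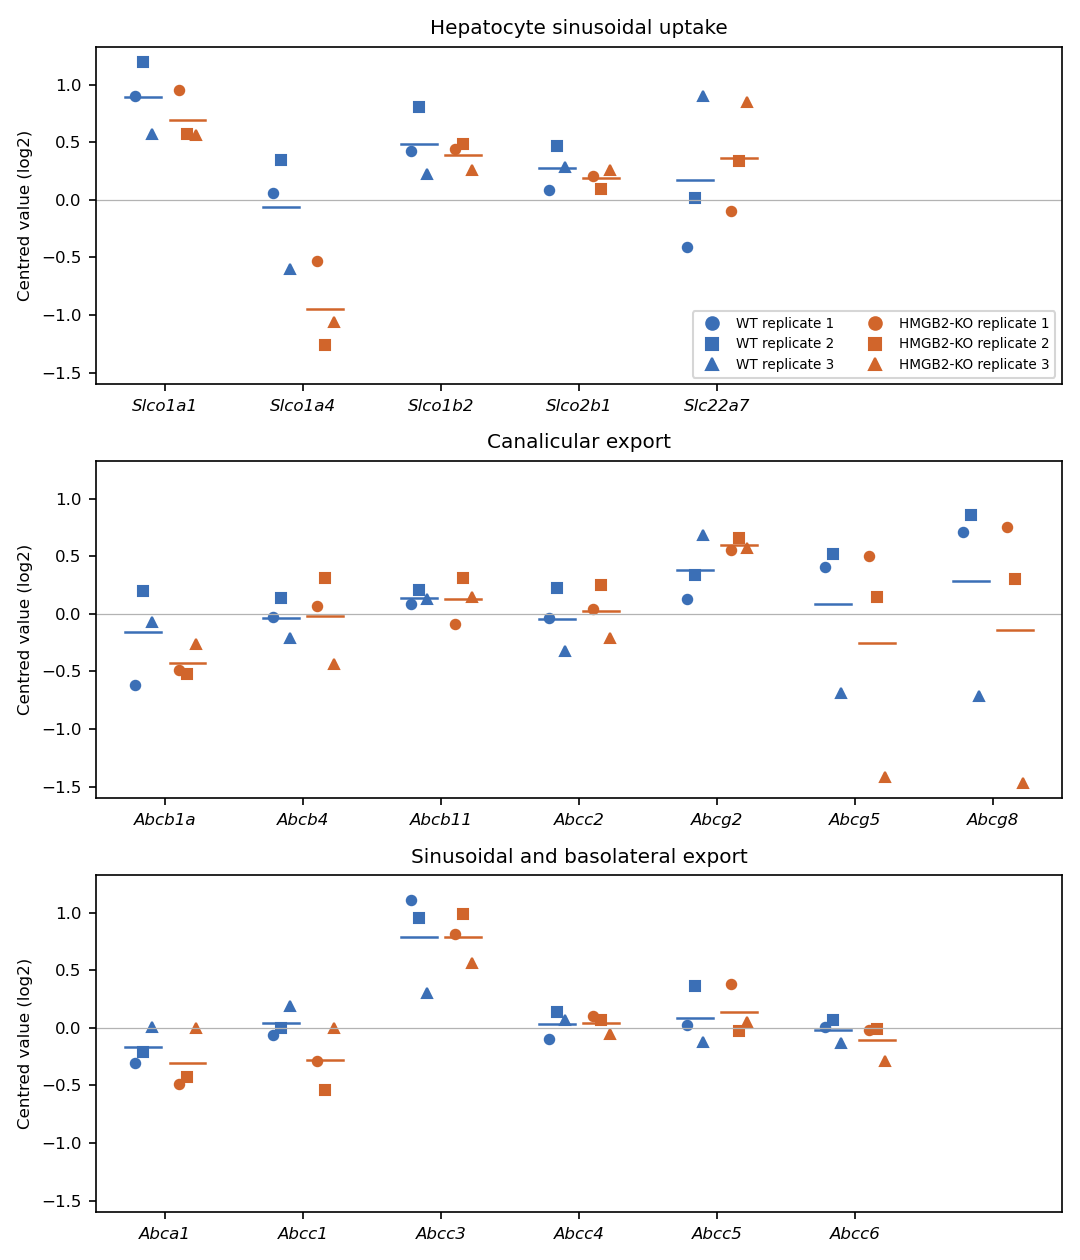
Centred log2 values of 18 carriers of hepatocyte uptake, canalicular export and sinusoidal or basolateral export, with 1 symbol per array (circles, squares and triangles for replicates 1, 2 and 3) and a line at the mean of 3 arrays. Slco1a4 shows the widest gap between genotypes in the top row, and the triangles of Abcg5 and Abcg8 lie far below the other symbols in both genotypes.

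Of the 3 carnitine and ergothioneine transporters, 0 had an unadjusted limma p under 0.05. Slc22a5, the high-affinity carnitine carrier OCTN2, stood at -0.26, 0.75 and -0.50 in WT and at 0.01, 1.08 and -0.01 in HMGB2-KO. In each genotype the liver numbered 2 was far above the other two, and the groups overlapped. The change of 0.36 ± 0.40 (SE) was the highest of all 91 members and had a 95% interval from -0.57 to 1.30. Slc22a4, the ergothioneine transporter, changed by -0.01 ± 0.19 and Slc22a21, a carnitine carrier known in mouse, by -0.09 ± 0.21, and both turned positive on centred arrays, to 0.11 and 0.02.

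Of the 14 measured uptake genes grouped on a kidney list, 1 was lower at an unadjusted p. The list's median change was -0.30, or -0.18 relative to the median gene. The list also holds Slc22a28 and Slc22a30, which are described separately below. Slc22a8, the basolateral organic anion transporter OAT3, stood at 0.61, 0.67 and -0.08 in WT and at -0.11, -0.32 and 0.01 in HMGB2-KO. WT replicates 1 and 2 were above all other arrays, whereas WT replicate 3 lay among the HMGB2-KO livers. The change was -0.54 ± 0.22 (SE, unadjusted limma p 0.0459), and p was 0.0594 on centred arrays. Slco1a6, a kidney organic anion carrier, stood at 0.22, 1.33 and -0.50 against -0.66, -0.56 and -0.22, and WT replicate 2 was far above all others. Its change of -0.83 ± 0.42 became -0.34 without that array. Slco4c1, a kidney carrier of digoxin and thyroid hormone, changed by -0.60 ± 0.33, with a WT SD of 0.55 and an HMGB2-KO SD of 0.50 (n = 3 each).

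Of the 11 measured uptake genes known from brain, testis or prostaglandin transport, 0 had an unadjusted p under 0.05. Their median change was -0.32, or -0.20 relative to the median gene. Slco6b1, a testis organic anion carrier, had the largest negative estimate of all members. It stood at 0.12, 0.63 and -1.58 in WT and at 0.04, -1.99 and -1.89 in HMGB2-KO, so each genotype held both high and low arrays. The change of -1.01 ± 0.69 (SE) had an unadjusted limma p of 0.185. Slco6d1, of the same subfamily, changed by -0.56 ± 0.45, and HMGB2-KO replicate 2 alone was low at -1.64. Slco1a5, a bile acid carrier known from rodent intestine and brain, changed by -0.48 ± 0.49. It was likewise lowest in HMGB2-KO replicate 2, at -1.77, and the change turned to 0.03 without that array. The kidney list and this list together had WT replicate 2 as the highest of 6 arrays in 19 of 25 genes, against 9 of 18 genes on the hepatocyte lists, 52 of all 91 members and 60.1% of all probe sets.

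Among uptake genes outside these lists, Slc22a23, an orphan member of its family, had the smallest p in the positive direction. It stood at -0.18, 0.19 and 0.02 in WT and at 0.29, 0.15 and 0.31 in HMGB2-KO. The HMGB2-KO livers were mostly above the WT livers, but WT replicate 2 lay above HMGB2-KO replicate 2. The change was 0.24 ± 0.15 as deposited (unadjusted limma p 0.145) and 0.36 on centred arrays (unadjusted limma p 0.0225). Slc22a3, the extraneuronal monoamine transporter, had groups that did not overlap, at -0.07, -0.16 and -0.17 in WT and -0.54, -0.57 and -0.22 in HMGB2-KO, a change of -0.31 ± 0.15 with p 0.0741 in limma.

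Slc22a28 and Slc22a30, both counted on the kidney list, belong to a rodent-specific cluster of genes related to organic anion transporters. Slc22a28 stood at 0.59, 0.70 and 1.21 in WT and at 0.71, 0.71 and 1.19 in HMGB2-KO, and Slc22a30 at 0.54, 0.49 and 0.91 against 0.46, 0.78 and 1.13. In both genes the livers numbered 3 were the highest of the 6, and the genotypes differed by 0.04 ± 0.22 and 0.14 ± 0.21 (SE). Their start regions are shown because their values moved alike and these regions are nearly the same in sequence. Most of each region lies before the gene start, and transcript and probe sequences were not compared. Whether the genes share probe signal was therefore not tested, and their separate values stay uncertain. The windows run from 250 bases before to 50 bases after the gene start (RefSeq, GRCm38.p6, minus strand, chr19:8131933-8132232 and chr19:8405056-8405355), and capitals mark the 6 bases that differ among 294 aligned bases, an identity of 98.0%.
Slc22a28: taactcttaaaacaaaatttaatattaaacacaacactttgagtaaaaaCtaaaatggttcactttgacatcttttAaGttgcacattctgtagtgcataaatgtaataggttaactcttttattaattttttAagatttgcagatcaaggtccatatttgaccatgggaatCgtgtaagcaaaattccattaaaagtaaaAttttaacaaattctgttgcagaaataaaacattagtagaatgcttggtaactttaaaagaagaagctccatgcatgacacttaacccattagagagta
Slc22a30: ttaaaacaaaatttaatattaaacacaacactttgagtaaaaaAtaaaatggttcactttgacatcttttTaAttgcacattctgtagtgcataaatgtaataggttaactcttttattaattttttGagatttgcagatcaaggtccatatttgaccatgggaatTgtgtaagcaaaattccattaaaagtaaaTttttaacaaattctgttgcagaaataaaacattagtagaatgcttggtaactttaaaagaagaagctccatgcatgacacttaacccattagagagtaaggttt

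Of the 7 canalicular pumps on the list, 0 had an unadjusted p under 0.05, and their median change was -0.02, or 0.11 relative to the median gene. The list holds Abcb1a but not its close relative Abcb1b, which was lower by 0.50 (unadjusted limma p 0.0137) and is described below. Abcb11, the bile salt export pump, stood at 0.08, 0.21 and 0.13 in WT and at -0.08, 0.31 and 0.15 in HMGB2-KO. The HMGB2-KO livers spanned the whole WT range, and the change of -0.02 ± 0.15 (SE) turned to 0.10 on centred arrays, with a 95% interval as deposited from -0.37 to 0.34. Abcb4, which flips phosphatidylcholine into bile, changed by 0.02 ± 0.21, and Abcc2, which exports bilirubin glucuronides, by 0.07 ± 0.19. Abcg2, a pump for sulfated conjugates and urate, stood at 0.13, 0.34 and 0.68 in WT and at 0.56, 0.66 and 0.57 in HMGB2-KO. Its HMGB2-KO livers were close together near the top of the WT range, a change of 0.21 ± 0.17 (SE, unadjusted limma p 0.248).

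Abcb1a and Abcb1b, the 2 mouse genes of P-glycoprotein, a drug efflux pump, were measured separately. Abcb1b stood at -0.24, -0.10 and -0.17 in WT and at -0.74, -0.42 and -0.85 in HMGB2-KO. Every HMGB2-KO liver was below every WT liver, with a change of -0.50 ± 0.16 (SE), a 1.42-fold lower level, and the smallest unadjusted limma p of the members, 0.0137. It was -0.38 on centred arrays, and p was 0.0542 without HMGB2-KO replicate 3. Abcb1a stood at -0.62, 0.20 and -0.07 against -0.49, -0.52 and -0.26. WT replicate 1 was its lowest array, the groups overlapped, and the change was -0.26 ± 0.22 (SE). Whether the changes of the 2 genes differ from each other was not tested.

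Slco1a4 and Abcb1b were the members lower at an unadjusted p both as deposited and on centred arrays, and their start regions are shown for that reason. Capitals mark CCAAT on either strand (ATTGG on the strand shown) in the windows of 250 bases before to 50 after the start (RefSeq, GRCm38.p6), Slco1a4 at chr6:141856171-141856470 on the minus strand and Abcb1b at chr5:8797897-8798196 on the plus strand.
Slco1a4: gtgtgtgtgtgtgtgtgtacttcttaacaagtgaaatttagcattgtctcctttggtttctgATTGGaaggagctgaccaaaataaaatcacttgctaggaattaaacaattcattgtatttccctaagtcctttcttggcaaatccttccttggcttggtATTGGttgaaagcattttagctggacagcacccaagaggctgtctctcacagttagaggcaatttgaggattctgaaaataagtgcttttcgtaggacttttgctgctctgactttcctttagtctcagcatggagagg
Abcb1b: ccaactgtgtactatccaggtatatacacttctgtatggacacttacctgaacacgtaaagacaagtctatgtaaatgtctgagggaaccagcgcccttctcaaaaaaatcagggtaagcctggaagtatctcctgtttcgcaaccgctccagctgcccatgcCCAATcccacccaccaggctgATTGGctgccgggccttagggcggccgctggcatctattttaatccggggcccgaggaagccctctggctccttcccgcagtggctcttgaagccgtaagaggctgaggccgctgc
Each window held 2 matches, and 11.7% of 32851 promoter windows of the same length held at least 2. The windows of Slco1a1, Abcb1a, Slc22a28 and Slc22a30 held 0. The window of Abcg8, whose groups overlapped (unadjusted limma p 0.518), also held 2. The Abcb1b window had 12 CpG pairs and that of Abcb1a 2, around a median of 7 over all windows. The Slco1a4 window had 1 CpG pair and that of Slco1a1 0. The windows were picked with the values known, so these counts are a description and no test. These matches describe letters and are not sites of binding. Other windows of the same gene, where there are any, were not searched, so the comparison between genes rests on the windows read. A window was found for 73 of the 91 members.

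Abcg5 and Abcg8, whose products form 1 heterodimer that moves cholesterol into bile, separated the livers by number and not by genotype. Abcg5 stood at 0.41, 0.52 and -0.68 in WT replicates 1, 2 and 3 and at 0.51, 0.14 and -1.41 in the HMGB2-KO replicates. Abcg8 stood at 0.71, 0.85 and -0.72 against 0.75, 0.30 and -1.47. In both genes the livers numbered 3 lay far below the other 4, across a range of 1.94 and 2.32 over the 6 arrays, beside a median range of 0.66 over the members. The genotype differences of -0.34 ± 0.52 and -0.42 ± 0.62 (SE) were below the spread within each genotype, and both turned to 0.24 without HMGB2-KO replicate 3.

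The genes lie head to head, with starts 110 bases apart, and the region between them is shown because both are read from it. The window is chr17:84682871-84683170 on the plus strand (RefSeq, GRCm38.p6), with capitals from the start of Abcg5 to that of Abcg8.
Abcg5-Abcg8: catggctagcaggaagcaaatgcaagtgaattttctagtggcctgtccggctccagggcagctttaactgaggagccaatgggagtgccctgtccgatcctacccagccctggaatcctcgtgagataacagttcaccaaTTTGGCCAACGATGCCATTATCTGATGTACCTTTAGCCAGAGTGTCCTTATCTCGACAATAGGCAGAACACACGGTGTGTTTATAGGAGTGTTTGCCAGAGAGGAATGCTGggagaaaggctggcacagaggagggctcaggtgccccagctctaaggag
It held 3 matches to GATAA, searched on both strands, of which 2 lie between the starts, and at least 3 were found in 0.938% of all windows of the same length. The window was picked with the values known and the motif by no stated rule, so this share is a description and no test. These matches too describe letters and are not sites of binding.

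**Figure D3:**
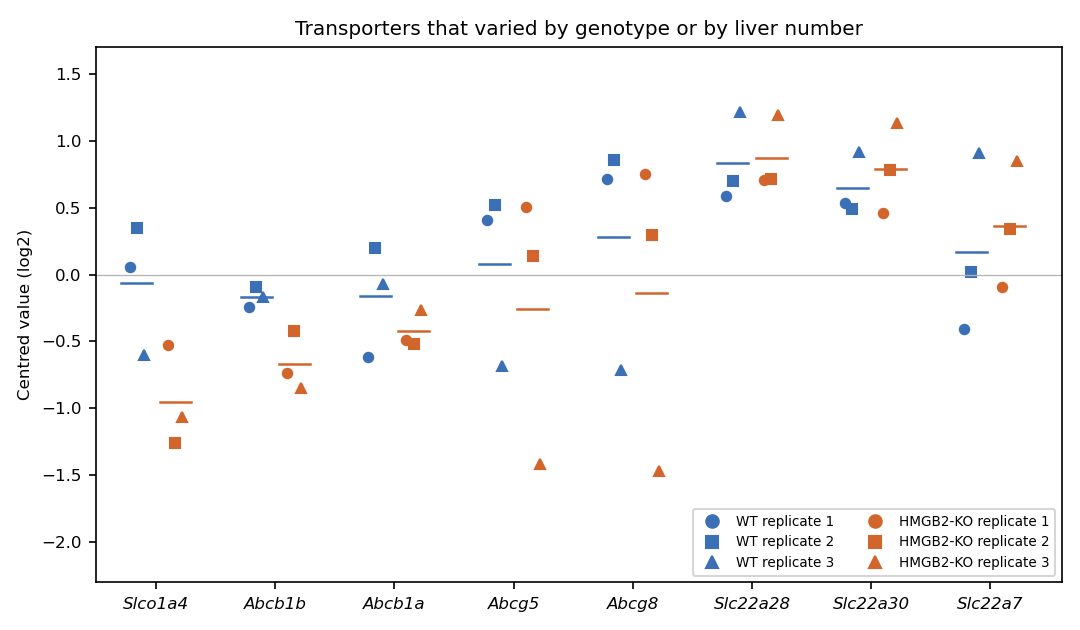
Centred log2 values of 8 transporters, with 1 symbol per array (circles, squares and triangles for replicates 1, 2 and 3) and a line at the mean of 3 arrays. Slco1a4 and Abcb1b separate mainly by colour, that is by genotype, whereas in Abcg5, Abcg8, Slc22a28, Slc22a30 and Slc22a7 the triangles, the livers numbered 3, lie apart in both genotypes.

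The same division by liver number was counted over all members after it was seen in Abcg5 and Abcg8. Both livers numbered 3 lay below the other 4 in 18 members, of which 6 were uptake genes and 12 ABC genes, which is 19.8% of the members beside 14.0% of all probe sets. They lay above in 5 members, or 5.49%, beside 4.46%. The first set included Abcb4, Abcc2, Abcc3, Abcc6, Abcg1, Slco1b2 and Abca8a as well as Abcg5 and Abcg8, and the second was Abca1, Slc22a7, Slc22a15, Slc22a28 and Slc22a30. Ppara, the nuclear receptor for fatty acids, also stood lowest in the livers numbered 3, at 1.33, 1.76 and 0.43 in WT and 1.42, 1.52 and 0.14 in HMGB2-KO. The labels do not say what the numbers stand for.

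Among the 4 sterol exporters, Abca1 alone had the opposite order. Abca1, which loads cholesterol onto apolipoprotein A-I, stood at -0.30, -0.21 and 0.00 in WT and at -0.49, -0.43 and -0.00 in HMGB2-KO. Here the livers numbered 3 were the highest, opposite to Abcg5, Abcg8 and Abcg1. The genotype change was -0.14 ± 0.18, turning to 0.01 under quantile normalization. Abcg1, which exports cholesterol to high-density lipoprotein, stood at -0.00, 0.27 and -0.02 in WT and at 0.28, 0.16 and -0.15 in HMGB2-KO. The livers numbered 3 were its lowest, by a narrow margin in WT, and the genotype change was 0.01 ± 0.17.

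Of the 6 sinusoidal and basolateral exporters, 0 had an unadjusted p under 0.05. Their median change was -0.04, or 0.08 relative to the median gene. Abcc3, which returns bile acids and glucuronides to blood, stood at 1.11, 0.95 and 0.30 in WT and at 0.82, 0.98 and 0.56 in HMGB2-KO. Both means were 0.79, with a WT SD of 0.43 and an HMGB2-KO SD of 0.21 (n = 3 each). Abcc4, a second bile acid exporter to blood, changed by 0.00 ± 0.14, and its 95% interval from -0.32 to 0.32 was among the narrower ones. Abcc1, a pump for glutathione conjugates, stood at -0.06, 0.00 and 0.19 against -0.28, -0.54 and -0.00, a change of -0.32 ± 0.18 (SE, unadjusted limma p 0.109). Abcc5, a cyclic nucleotide exporter, and Abcc6, which is needed for release of ATP from liver, changed by 0.05 ± 0.18 and -0.09 ± 0.15, the latter turning to 0.03 on centred arrays.

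Among peroxisomal and lysosomal half-transporters, Abcd3 was the 1 of 4 described here with an unadjusted p under 0.05. Abcd3, which carries branched-chain acids and bile acid intermediates into peroxisomes, stood at 0.57, 0.61 and 0.71 in WT and at 0.02, 0.24 and 0.46 in HMGB2-KO. The groups did not overlap, and the WT livers were close together. The change was -0.39 ± 0.16 (SE, unadjusted limma p 0.0405), which became -0.27 with p 0.150 on centred arrays in limma. Abcd2, which carries very long-chain fatty acids, changed by -0.48 ± 0.46 with a WT SD of 0.72 (n = 3). Abcd4, of lysosomal cobalamin export, changed by -0.12 ± 0.19 and Abcb9, a lysosomal peptide carrier, by 0.05 ± 0.23.

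Of 3 mitochondrial half-transporters, 0 had an unadjusted limma p under 0.05. Abcb10, linked to heme synthesis, changed by -0.14 ± 0.18, Abcb6, a porphyrin carrier, by 0.08 ± 0.15 and Abcb8 by 0.03 ± 0.21. All 3 had 95% intervals within a 1.5-fold change either way. Among the remaining ABC groups, 0 of the 4 ATPases of translation (Abce1 and Abcf1 to Abcf3) and 0 of the 2 sulfonylurea receptors (Abcc8 and Abcc9) had an unadjusted p under 0.05, with median changes of 0.05 and -0.09. Abca7, of lipid handling in phagocytes, had the highest ABC estimate, 0.36 ± 0.37, and WT replicate 2 alone was low at -1.14, so that the value was -0.09 without it.

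The uptake and ABC families were then set side by side. The median change was -0.17 over the 41 uptake genes and -0.09 over the 50 ABC genes, or -0.05 and 0.04 relative to the median gene, and on centred arrays the ABC median turned to 0.03. Below the median gene lay 24 of 41 uptake genes and 22 of 50 ABC genes. By family the medians were -0.19 for Slco, -0.14 for Slc22a, -0.17 for Abca, 0.00 for Abcb, -0.06 for Abcc, -0.25 for the 4 Abcd, 0.02 for the 3 Abcf and -0.02 for the 6 Abcg, each before the shift of the median gene. Per array, the uptake median minus the ABC median was 0.03, 0.21 and -0.04 for the WT livers, in order of their numbers, and -0.01, -0.02 and -0.02 for the HMGB2-KO livers. The 3 HMGB2-KO values lay within the WT range, and the WT range was set at its upper end by replicate 2. The gap between the family medians, -0.09, was -0.02 without HMGB2-KO replicate 2 and -0.13 without WT replicate 3. The range over the 6 arrays was wider for Slco genes, with a median of 1.07, than for Slc22a genes at 0.67 or ABC genes at 0.63, and these are descriptions with no test.

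**Figure D4:**
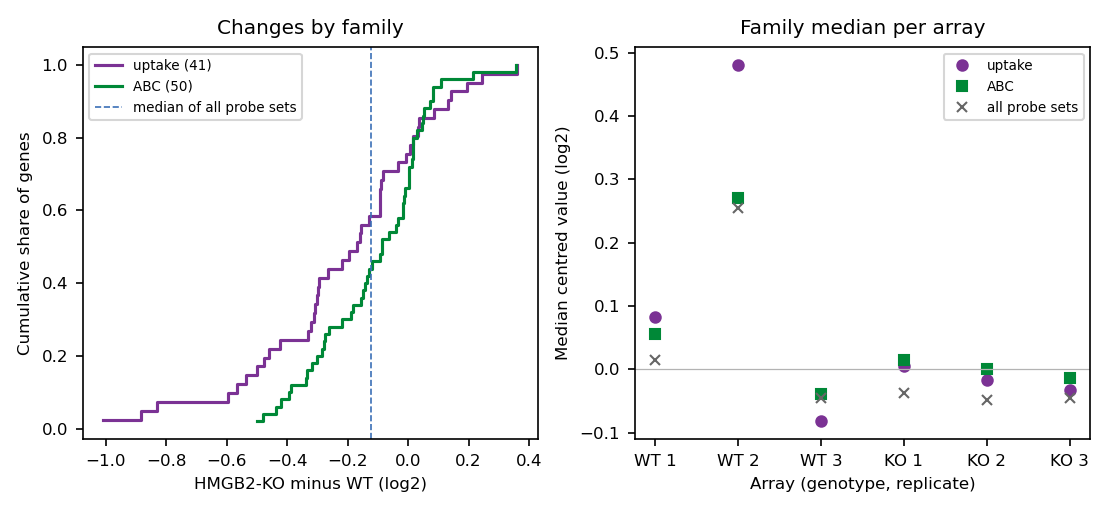
Left, cumulative share of genes by change (HMGB2-KO minus WT, log2) for 41 uptake and 50 ABC genes, with the median of all probe sets (-0.12) dashed. Right, median centred log2 value of each family and of all probe sets on each of the 6 arrays, where WT replicate 2 stands above the others and the families differ most (0.48 for uptake against 0.27 for ABC).

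A further list held 18 genes linked to transport of bile acids and organic ions. It held carriers and also pumps, a channel and scaffold proteins (Atp7b, Atp8b1, Aqp9, Pdzk1, Slc9a3r1 and Rdx). Of these 18 genes, 0 had an unadjusted limma p under 0.05. The 4 with the smallest p were Slc47a2, an exporter of organic cations, at -0.21 ± 0.13, the anion transporter Slc17a3 at 0.44 ± 0.29, Slc10a1, the sodium-dependent bile acid carrier of the sinusoidal membrane, at -0.29 ± 0.21, and Slc17a1 at -0.20 ± 0.18 (SE). Of 17 transcription factors that regulate transporters, 0 passed that threshold. The 4 with the smallest p were Nr1i2, the xenobiotic receptor PXR, at -0.47 ± 0.24, Nr0b2, the repressor SHP of bile acid synthesis, at -0.47 ± 0.26, Ahr, the aryl hydrocarbon receptor, at -0.31 ± 0.22, and Foxa2, a hepatocyte forkhead factor, at -0.37 ± 0.30 (SE).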

How the data were processed

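Total RNA of 6 livers was labelled with biotin, in duplicate per the labels' protocols, and hybridised to Clariom S mouse arrays. The deposited values, made by the authors, are read as log2 values centred gene by gene on more arrays than these 6. The log base was taken from their range and is not stated, so folds rest on that reading. Neither the merging of duplicates, the normalization software nor the genome build is given in the sources used here. The authors' 2 deposited tables differed in 0 values. The number of arrays limits the precision. HMGB2-KO was compared with WT by limma 3.58.1 (lmFit and eBayes, R 4.3.3) over 22203 probe sets with a symbol, with Benjamini-Hochberg adjustment. Changes are HMGB2-KO minus WT. The members, role lists and tests were chosen with earlier results of these data known. Named are all members of the hepatocyte, carnitine, peroxisomal and mitochondrial lists, members with an unadjusted p under 0.05, the 5 largest changes per direction and the 4 smallest p of each list of other genes. Slc22a2, Slc22a3, Slc22a18, Slc22a26, Slc22a28, Slc22a30, Slco6c1, Slco1a5, Abca8a, Ppara, Spp1 and Pecam1 were added after their values were seen. Some members of these lists are not reported here one by one and count only among the 91. Other members appear as counts or to close a list. Same-numbered livers deviated together with r of 0.02, 0.13 and 0.27 across genes, and livers of unlike number with r from -0.22 to 0.11. The r of 0.27, for the livers numbered 3, was the highest. The labels do not say what the numbers stand for, so the main fit took no pairs. A replicate block was run as an alternative. Gene starts and sequences are from RefSeq tables of GRCm38.p6, with 90 members matched by symbol. Alternatives were centred arrays, quantile normalization, robust eBayes, array weights, averaging by symbol, a replicate block and leaving out each array.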

Additional observations from a re-analysis of the deposited data

How the results depend on the processing

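With 3 arrays per genotype and values that have lost brightness, small changes and dim probes could not be judged. No member passed the adjusted threshold under any alternative run. The 4 members lower at an unadjusted p became 2 on centred arrays (Slco1a4 and Abcb1b), 1 under quantile normalization (Slco1a4), 14 with array weights, which put a weight of 4.67 on WT replicate 1, 2 on centred arrays without WT replicate 2, and 2 to 11 when 1 array was left out (2 without WT replicate 2 or HMGB2-KO replicate 2, 11 without WT replicate 3). The count of 0 members higher became 1, 1, 4 and 1 in the first 4 of these settings, Slc22a23 among them each time. Over all 22203 probe sets the lower count moved as well, from 1076 to 621, 523, 2499 and 414 in those 4 settings. The higher count went from 16 to 229, 328, 458 and 308. Without WT replicate 2, HMGB2-KO replicate 2 or WT replicate 3, 550, 698 and 2101 probe sets were lower. The 1 member lower by at least 1.5-fold became 5 with array weights and 1 to 5 with 1 array left out (5 without WT replicate 3, 2 without HMGB2-KO replicate 1 or 3). The matching fold counts over all probe sets were not taken for these settings. The ABC median of -0.09 became 0.033 on centred arrays, 0.056 under quantile normalization and 0.027 on centred arrays without WT replicate 2, and it was between -0.17 and -0.00092 with 1 array left out, while the uptake median ran from -0.30 to -0.065. The replicate block left 3 members lower, without Slc22a8, and brought Nr1i2 and Slc17a3 to an unadjusted limma p of 0.0421 and 0.0294, with 1272 probe sets at an unadjusted p under 0.05 instead of 1092. The block lowered the unadjusted limma p from 0.539 to 0.141 for Abcg5 and from 0.518 to 0.0767 for Abcg8. That of Slc22a5 fell from 0.395 to 0.0518, while that of Slc22a23 rose from 0.145 to 0.197. Of the 6 named genes with an unadjusted p under 0.05, 0 turned sign in any setting. They were picked by that p in arrays that the settings largely share. Their sign was therefore likely to hold, and this count is no test. With 1 array left out, Abcd3 and Slc22a8 each missed that threshold in 5 of the 6 fits, Pecam1 in 4, Spp1 in 3 and Slco1a4 and Abcb1b in 1 each. Of the other 50, 10 came under it with array weights, 2 under the replicate block and 5 without WT replicate 3. Without HMGB2-KO replicate 3 it was 4, and in each other setting 0 or 1. Over all 22203 probe sets, 2957, 1272, 2124 and 838 were under it in the 4 settings named, in that order, against 1092 in the main fit. Several of the 50 were named for a large change or a small p, so their counts are not comparable with that background. Among these 50, many with changes near 0, the sign turned in 7 on centred arrays, namely 0.10 for Abcb11, 0.033 for Abcc6, 0.025 for Slc22a21, 0.11 for Slc22a4, 0.025 for Slco1b2, 0.026 for Slco2b1 and 0.11 for Abca8a. Under quantile normalization 9 turned, with 0.0075 for Abca1, 0.10 for Abcb11, 0.025 for Abcc6, 0.043 for Abcd4, 0.023 for Slc22a21, 0.15 for Slc22a4, 0.077 for Slco1b2, 0.065 for Slco2b1 and 0.12 for Abca8a. With array weights 9 turned, with 0.039 for Abcb11, 0.084 for Abcb1a, -0.035 for Abcb8, -0.21 for Abcc3, 0.079 for Abcd4, 0.0034 for Slc22a21, 0.011 for Slc22a4, 0.056 for Slco2b1 and -0.23 for Abca7. On centred arrays without WT replicate 2 there were 9, with 0.047 for Abcb11, 0.076 for Abcd4, 0.16 for Slc22a4, 0.096 for Slco1b2, 0.032 for Slco2b1, -0.060 for Abca7, 0.23 for Abca8a, -0.0031 for Slc22a28 and 0.17 for Ppara. Robust eBayes, averaging by symbol and the replicate block turned 0. With 1 array left out, the change ran from -0.24 to 0.024 for Abcb10, -0.11 to 0.089 for Abcb11, -0.15 to 0.23 for Abcb4, -0.19 to 0.19 for Abcb8, -0.19 to 0.25 for Abcb9, -0.068 to 0.21 for Abcc2, -0.24 to 0.16 for Abcc3, -0.063 to 0.052 for Abcc4, -0.073 to 0.19 for Abcc5, -0.14 to 0.0058 for Abcc6 and -0.23 to 0.048 for Abcd4. It ran from -0.72 to 0.24 for Abcg5, -0.92 to 0.24 for Abcg8, -0.29 to 0.10 for Slc22a21, -0.16 to 0.13 for Slc22a4, -0.00010 to 0.74 for Slc22a5, -0.095 to 0.56 for Slc22a7, -0.22 to 0.068 for Slco1b2 and -0.19 to 0.0033 for Slco2b1. It ran from -0.088 to 0.72 for Abca7, -0.33 to 0.24 for Abca8a, -0.12 to 0.23 for Slc22a28, -0.029 to 0.31 for Slc22a30, -0.94 to 0.029 for Slco1a5 and -0.52 to 0.29 for Ppara. The cause was not tested. The second deposited table holds the same values and a filter on dim probe sets needs brightness, so neither alternative was run.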
